A study of Mus musculus with 23 samples.

Results

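Chemotactic receptors let microglia sense where to move, and 8 of their genes were followed here across accessible chromatin: Cx3cr1, Ccr1, Ccr2 and Cxcr4 of the chemokine receptors, Cmklr1 and Ccrl2 of the chemerin system, and the formyl peptide receptors Fpr1 and Fpr2. A peak belonged to a gene when its summit lay in the gene body or within 20 kb of it in the mouse genome build GRCm38, and to the nearest of these genes where several qualified. By this rule 942 of the 1054137 deposited peaks belonged to the 8 genes of 21887 protein-coding genes. They made up 46 of 49124 regions, a region being a 501 bp window around a summit that 3 or more of the 23 libraries shared.

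These receptors are G protein-coupled proteins of the cell surface that mostly signal through inhibitory G proteins, which turn a gradient of ligand into directed movement. Cx3cr1 binds fractalkine (Cx3cl1) of neurons and is a defining gene of microglia, whereas Ccr2, the receptor of Ccl2, is known from monocytes that enter inflamed tissue. Ccr1 binds Ccl3 and Ccl5, Cxcr4 binds Cxcl12, and Cmklr1 binds chemerin, which Ccrl2 also binds without signalling itself. Fpr1 and Fpr2 detect formylated peptides of bacteria and mitochondria, and are best known from neutrophils and macrophages.

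Accessibility was measured by ATAC-seq, in which the transposase Tn5 cuts open chromatin, in striatal microglia of 8 to 10 week old male mice. The meninges were removed, the tissue was digested with papain, and living cells were sorted by CD11b, low CD45 and P2RY12. Offspring after maternal immune activation (MIA) and control offspring (CON) were compared, each 18 hours after an intraperitoneal injection of lipopolysaccharide (LPS, a bacterial cell wall component, 4500 endotoxin units per gram of body weight) or of saline (SAL). The groups were MIA_LPS (n = 5), MIA_SAL (n = 6), CON_LPS (n = 7) and CON_SAL (n = 5), with anterior, dorsal and ventral striatum combined before digestion. The labels give neither the agent of the maternal immune activation nor the strain, and do not say that each library came from its own mouse. The p-values therefore measure how far these libraries spread, which may be technical in part.

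Lists held 33949 to 68312 peaks, from 10560 to 25000 sorted cells a library. Every list was therefore shortened to its 33949 peaks with the highest −log10 p, and a peak's place in the list was written as a rank percentile, 100 for the first peak and 0 where a library had no peak in the region. Marker genes matched the labelled cell type: 8 of 10 microglia genes had a peak within 1 kb of an end in most libraries, Tmem119, Sall1, Siglech and Olfml3 in all 23. For markers, only peaks in regions that 3 or more libraries shared were counted, so a gene with none may have had a peak in fewer libraries. Gpr34 and Slc2a5 had none, and P2ry12, whose protein was used to sort the cells, had one in 2 of 5 MIA_LPS, 5 of 6 MIA_SAL, 2 of 7 CON_LPS and 3 of 5 CON_SAL libraries. Some neutrophil genes moved with the treatment. S100a8, Mmp8 and Camp had such a peak in 10, 9 and 5 of 12 LPS libraries and in 0 of 11 saline libraries. The other 7 of 10 genes, S100a9, Csf3r, Ngp and Ltf among them, had no counted peak. Lists of lymphocyte, neuron, astrocyte, oligodendrocyte and endothelial genes, of 6 to 8 genes each, had such a peak at 0 to 3 genes a library.

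In rank, 16 of the 46 regions passed a test of LPS against saline, 10 higher and 6 lower, beside 20.7% of all 49124 regions. They lay at all of these genes but Fpr1. The share of all genes with such a region was not computed. Peaks appeared in the start regions of Ccr1 and Cxcr4, downstream of Fpr2 and inside Cmklr1, in 10 to 12 of 12 LPS libraries and in 0 or 1 of 11 saline libraries. Other regions of Cmklr1, Ccr1, Ccr2, Ccrl2 and Cx3cr1 lost peaks or rank, while the start regions of Cx3cr1, Ccrl2 and Cmklr1 had a peak in every library. Between MIA and CON offspring no region of these genes passed a test.

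Of the 46 regions, 21 had enough libraries with and without a peak for an exact conditional test (common odds ratio over both offspring groups) to reach a p of 0.01 or less. It called 10 of these 21 after LPS, 7 higher and 3 lower, at a Benjamini-Hochberg adjusted p under 0.05, against 23.7% of the 17547 regions tested in the whole genome (15.3% higher and 8.39% lower). On rank percentiles, limma called 16 of 46, 10 higher and 6 lower, against 20.7% of all regions (10.8% higher and 9.90% lower). The 16 include all 10 called by presence. With lists of 16974 peaks, which keep only the strongest, presence called 4 and rank called 4. The median rank difference of the 46 regions was 3.59 points, beside −0.60 points over all 49124 regions, and 14 of them (30.4%) had a peak in every library, beside 33.8% of all regions.

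**Figure D1:**
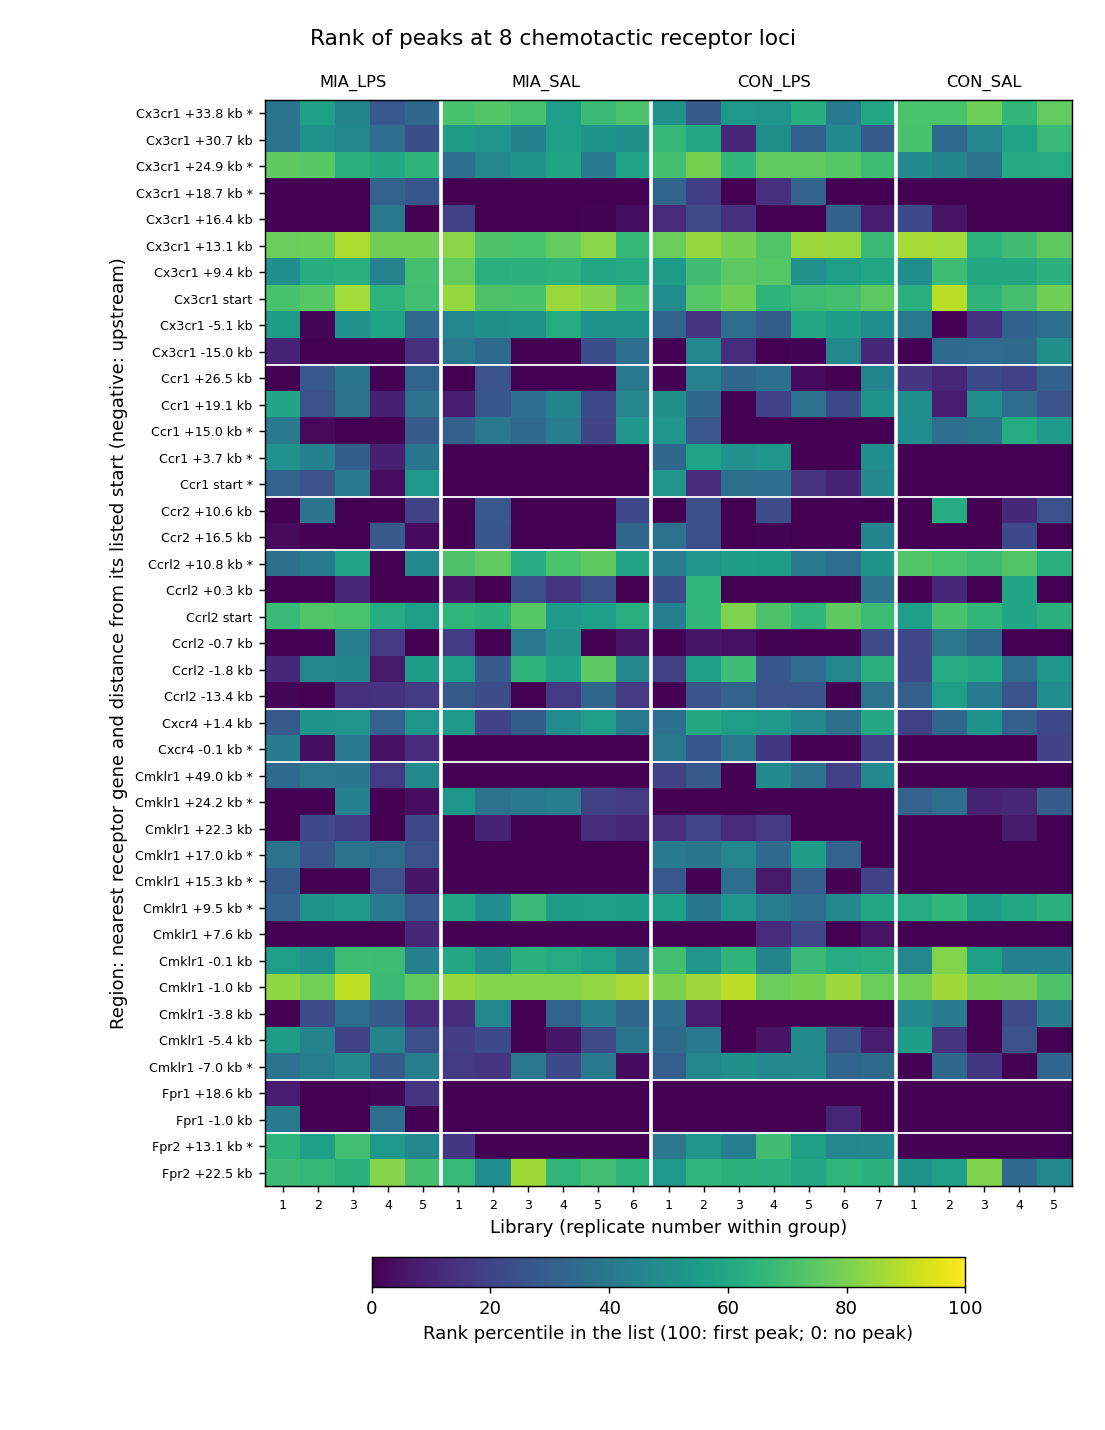
Rank percentile (colour, 0 for no peak to 100 for the first peak of the list) of the best peak in each of 41 regions, those not inside another gene (rows, by gene and distance from its listed start in kb, asterisk where a test of LPS against saline passed) in each of the 23 libraries (columns, by group). The rows of the start of Ccr1 and of the region 13111 bp downstream of the start of Fpr2 are filled in all 12 LPS libraries and in 0 and 1 of 11 saline libraries.

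More peaks were listed after LPS at some of these genes. In the lists of equal length Cmklr1 had 9, 9, 11, 9 and 12 peaks in the MIA_LPS libraries and 5, 8 and 9 (lowest, median, highest) in MIA_SAL, against 8, 9 and 10 in CON_LPS and 7, 7, 5, 7 and 6 in CON_SAL. Fpr1 had no peak in any of the 11 saline libraries, even among all deposited peaks, where the MIA_LPS libraries had 4, 2, 0, 3 and 4 and the CON_LPS libraries 0, 1 and 2. Cx3cr1 had 7 to 10 peaks in the lists of equal length in every group, and Ccr1 had 4 to 7 in MIA_LPS, 3 to 5 in MIA_SAL, 3 to 7 in CON_LPS and 4 or 5 in CON_SAL. In the same lists Fpr2 had 2 in every LPS library, 1 or 2 in MIA_SAL and 1 in every CON_SAL library. Cxcr4 had 2 in MIA_LPS, 1 in MIA_SAL and 1 or 2 in both CON groups, and Fpr1 had 0 to 3 in MIA_LPS and 0 or 1 in CON_LPS. These counts were not tested.

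**Figure D2:**
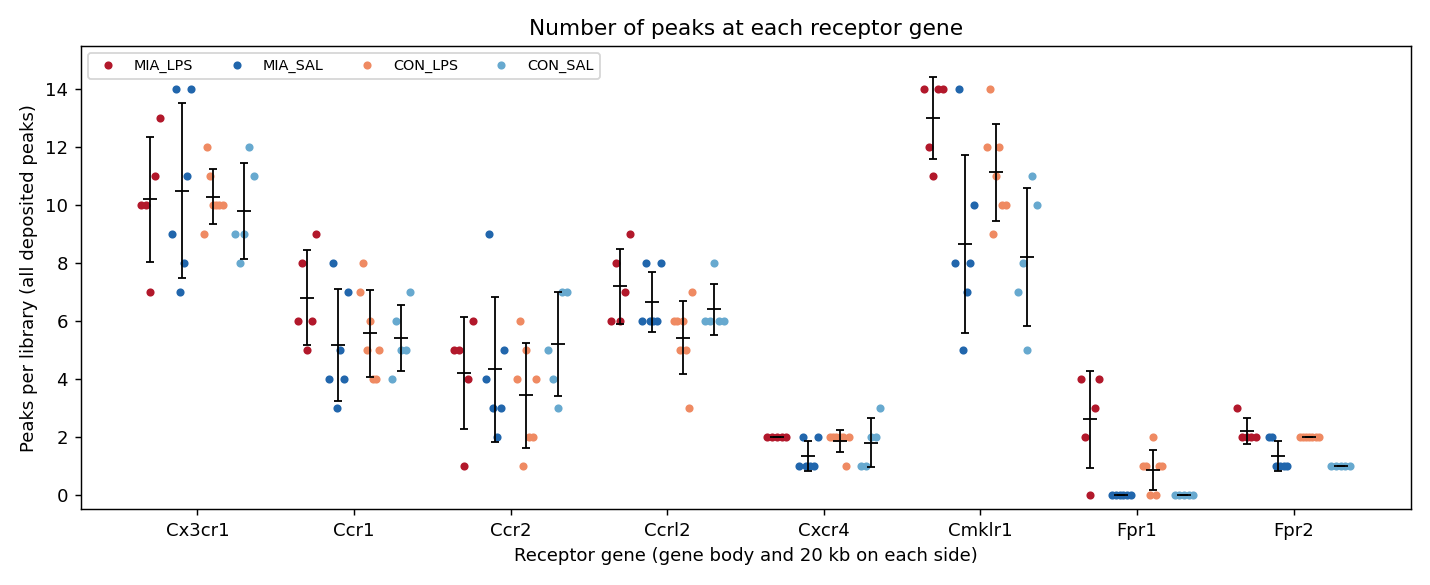
Number of peaks (vertical axis, all deposited peaks) at each receptor gene (horizontal axis) in each library (points, coloured by group), with the mean and SD of each group as bars. Fpr1 had 0 peaks in all saline libraries, and Cmklr1 averaged 13.0 in MIA_LPS against 8.67 in MIA_SAL, and 11.1 in CON_LPS against 8.20 in CON_SAL.

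In the lists of equal length, the regions around 2 starts gained a peak after LPS (Ccr1 and Cxcr4). Those of Cx3cr1, Ccrl2 and Cmklr1 were open in every library. The 250 bases upstream of the starts of Ccr1, Cxcr4 and Cx3cr1 are shown. They are written 5′ to 3′ on the strand of the gene, from RefSeq's GRCm38.p6 annotation, with CpG dinucleotides in capitals. All 3 stretches lie inside the tested regions: Ccr1 at chr9:123968693-123968942, Cxcr4 at chr1:128592300-128592549 and Cx3cr1 at chr9:120068297-120068546, each on the reverse strand.
Ccr1: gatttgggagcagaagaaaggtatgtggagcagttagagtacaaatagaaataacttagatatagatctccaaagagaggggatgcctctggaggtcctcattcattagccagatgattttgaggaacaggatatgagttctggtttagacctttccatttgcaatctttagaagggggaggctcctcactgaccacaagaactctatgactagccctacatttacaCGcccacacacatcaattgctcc
Cxcr4: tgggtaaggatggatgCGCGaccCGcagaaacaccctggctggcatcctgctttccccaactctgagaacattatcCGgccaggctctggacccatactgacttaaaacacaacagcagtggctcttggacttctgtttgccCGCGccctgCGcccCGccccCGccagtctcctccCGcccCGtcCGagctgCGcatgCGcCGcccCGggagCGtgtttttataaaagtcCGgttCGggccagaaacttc
Cx3cr1: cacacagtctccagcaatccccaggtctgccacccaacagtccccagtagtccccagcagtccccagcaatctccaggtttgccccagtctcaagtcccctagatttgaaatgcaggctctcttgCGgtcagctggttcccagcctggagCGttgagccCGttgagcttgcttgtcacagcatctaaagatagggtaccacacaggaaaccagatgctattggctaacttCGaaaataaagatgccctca
The Ccr1 stretch holds 1 CpG, the Cx3cr1 stretch 4 and the Cxcr4 stretch 19, a number that 19.7% of the 32851 promoters of the table reach, whose median is 6. Ccr2 and Fpr1 hold 1, Fpr2 holds 0, Cmklr1 holds 5, and the 3 listed starts of Ccrl2 hold 5, 6 and 7.

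The letters of 6 motifs were searched on both strands of these 250 bases: PU.1 (GAGGAAG), AP-1 (TGANTCA), NF-kB, IRF, STAT (TTCNNNGAA) and the SP and KLF box (GGGCGG). Cxcr4 had 3 SP and KLF boxes on the opposite strand, 95, 75 and 50 bases before its start, Ccrl2 had 1 at 195 bases, and Fpr2 had 1 STAT match at 77 bases. The other 4 motifs had no match at any of the 8 genes. They occur in 10.6% (PU.1), 6.75% (AP-1), 1.41% (NF-kB) and 2.98% (IRF) of all promoters of the table, the STAT motif in 7.02% and the SP and KLF box in 32.7%.

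Ccr1, the receptor of Ccl3 and Ccl5, had the region where the presence of a peak separated the treatments fully. At its start (chr9:123968444-123968944, centred 2 bp upstream) the rank percentiles were 32, 25.7, 41.0, 3.2 and 53.2 in MIA_LPS, and 0 in all 6 MIA_SAL libraries. In CON_LPS the lowest, median and highest were 9.6, 36.6 and 52, and all 5 CON_SAL libraries had 0. Every LPS library thus had a peak, and no saline library did (exact conditional test, adjusted p = 0.000175).

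The rank at the Ccr1 start was 30.6 ± 5.97 points higher after LPS (SE; limma adjusted p = 2.36e-04; exact permutation p = 2.73e-06, the smallest these groups can give). The difference was 31.0 points in MIA and 30.1 points in CON offspring, and Fisher's exact test passed in both (adjusted p = 0.0140 in MIA, 0.0101 in CON). Among the peaks, the median of the authors' fold enrichment was 6.47 in MIA_LPS and 5.22 in CON_LPS. With all deposited peaks, 2 of 6 MIA_SAL and 2 of 5 CON_SAL libraries had a peak over the start, and when peaks needed a −log10 q of 5 or more the call ended (adjusted p = 0.0814).

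Inside Ccr1, 3667 bp downstream of the start (chr9:123964775-123965275), peaks also followed LPS. The rank percentiles were 50.6, 44.0, 29.5, 8.9 and 38.9 in MIA_LPS and 0 in all MIA_SAL libraries, against 0, 49.2 and 58.1 (lowest, median, highest) in CON_LPS and 0 in all CON_SAL libraries. No peak was found in 2 CON_LPS libraries, so 10 of 12 LPS libraries and 0 of 11 saline libraries had a peak (exact conditional test, adjusted p = 0.00156; rank difference 34.6 ± 6.72 points). The region 8411 bp beyond the other end of Ccr1 (chr9:123953465-123953965) went the other way, with a peak in 5 of 12 LPS and 11 of 11 saline libraries and a rank difference of −29.5 ± 6.98 points. Its presence call (exact conditional test, adjusted p = 0.0270) ended on leaving out any 1 of 9 libraries, at adjusted p of 0.0507 to 0.0581. A region 17585 bp upstream, inside the neighbouring receptor gene Ccr1l1, was open in all 23 libraries (mean rank percentile 60.3) and did not pass a test.

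Fpr2, which detects formyl peptides and amyloid and serum peptides, had the largest rank difference of the 46 regions. The region lay 6983 bp beyond the end of the gene, 13111 bp from its start (chr17:17900685-17901185). Rank percentiles were 64.5, 56.3, 69.9, 53.5 and 46.2 in MIA_LPS, and 16.3 in MIA_SAL replicate 1 with 0 in the other 5 MIA_SAL libraries. CON_LPS had 39.5, 47.1 and 69.3 (lowest, median, highest), and all 5 CON_SAL libraries had 0. The LPS and saline libraries did not overlap.

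The difference at this Fpr2 region was 53 ± 5.32 points (limma adjusted p = 2.81e-09; exact permutation p = 2.73e-06), 55.4 points in MIA and 50.7 points in CON offspring. In rank by fold, the authors' enrichment over background, the means were 65.7 ± 8.8 in MIA_LPS and 5.5 ± 13.4 in MIA_SAL, and 60.1 ± 9.7 in CON_LPS and 0 in CON_SAL (SD). A region 16335 bp beyond the gene was open in all 23 libraries, and no peak in the lists of equal length covered the start of Fpr2 in any library.

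Fpr1, the neighbouring receptor of bacterial formyl peptides, had 2 regions, each with a peak in 3 libraries, too few for the test of presence. Neither passed the limma test of LPS against saline in rank. The region 1047 bp upstream of its start had a peak in 2 MIA_LPS libraries (rank percentiles 41.4 and 36.2) and in 1 CON_LPS library (10.2). The region 11132 bp beyond its end had a peak in 3 MIA_LPS libraries and in no other. No saline library had a peak at Fpr1.

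Formyl peptide receptors and Ccr1 are also neutrophil genes, and more cells of a type in the sort cannot be told apart here from more accessible chromatin per cell. Per library, 0 to 3 of the 10 neutrophil genes had a peak in MIA_LPS, 0 in MIA_SAL, 1 to 3 in CON_LPS and 0 in CON_SAL. MIA_LPS replicate 3, the LPS library with 0 neutrophil genes and the shortest list of all 23, had 41.0 at the Ccr1 start and 69.9 at the Fpr2 region, the highest of its group at Fpr2, and no peak at Fpr1. The values of 1 library cannot decide this, and the part of neutrophils in the results was not tested. F13a1, a gene of border-associated macrophages, had a peak in 10 of 12 LPS and 0 of 11 saline libraries. Others of that list did not follow it: Cbr2 had a peak in 4 MIA_LPS, 4 MIA_SAL, 7 CON_LPS and 4 CON_SAL libraries, and Stab1 in 0, 1, 1 and 2. The remaining 5 of the 8 genes, Mrc1, Lyve1, Cd163 and Pf4 among them, had none in a region that 3 or more libraries shared.

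Cxcr4, the Cxcl12 receptor, gained a peak in the region around its CpG-rich start. The region (chr1:128592153-128592653, centred 104 bp upstream) had rank percentiles of 41.5, 3.9, 40.5, 4.4 and 12.1 in MIA_LPS and 0 in all MIA_SAL libraries. In CON_LPS they were 0, 20.5 and 40.3 (lowest, median, highest), and in CON_SAL 0, 0, 0, 0 and 20.6. Libraries with a peak came to 10 of 12 after LPS and 1 of 11 after saline, and the groups overlapped in CON offspring. A peak covered the listed start base itself in 3 MIA_LPS, 0 MIA_SAL, 2 CON_LPS and 1 CON_SAL libraries, and with all deposited peaks in 3, 2, 2 and 1.

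The exact conditional test gave an adjusted p of 0.00787 at the Cxcr4 start, and the rank difference was 18.4 ± 5.80 points (limma adjusted p = 0.0206). The presence call ended with all deposited peaks (adjusted p = 0.0720), with ranking by fold (0.138), with peaks of −log10 q 5 or more (0.192) and without the 6 libraries of ID numbers 01 to 03 (0.0510). The other Cxcr4 region, 1407 bp inside the gene, was open in all 23 libraries, at mean rank percentiles of 43.2 ± 12.3 in MIA_LPS, 41.3 ± 14.2 in MIA_SAL, 50.1 ± 10.2 in CON_LPS and 31.2 ± 12.6 in CON_SAL (SD), and did not pass (limma adjusted p = 0.206).

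**Figure D3:**
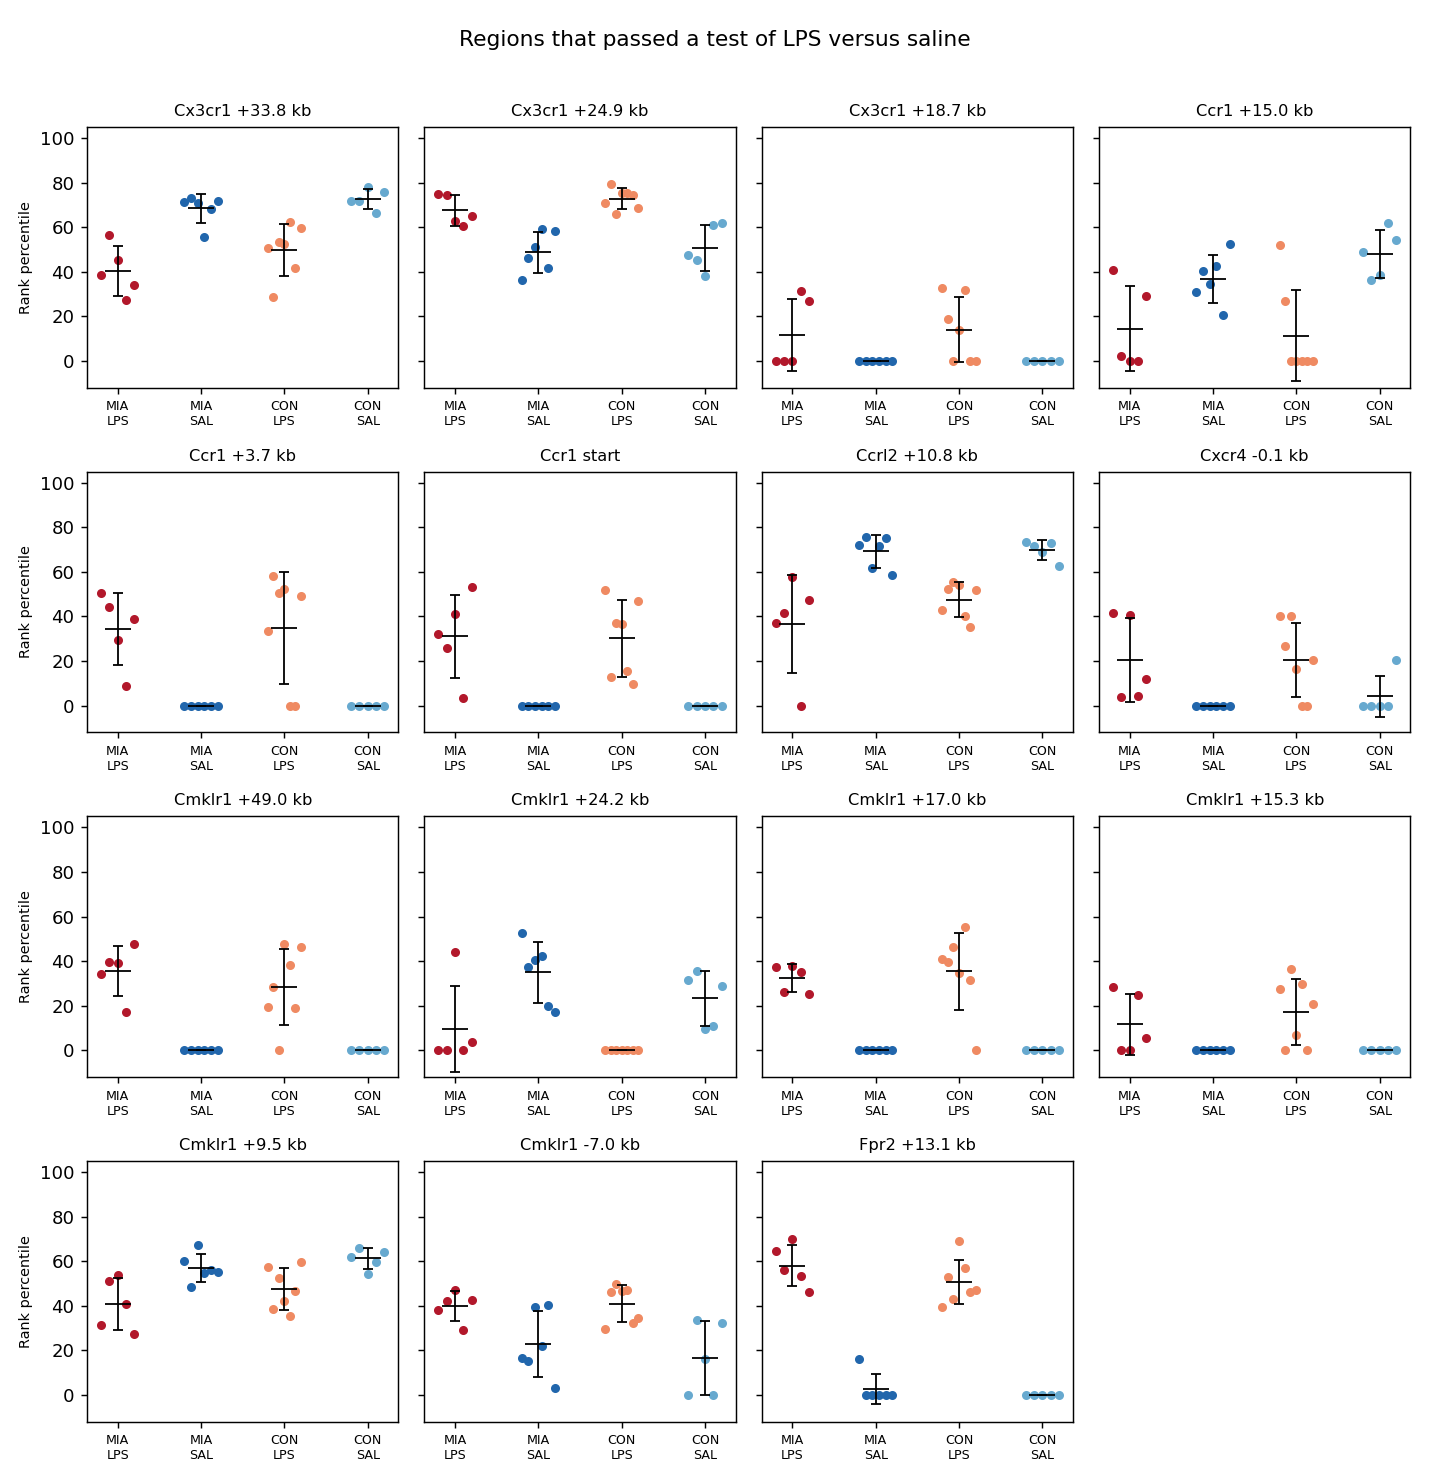
Rank percentile (vertical axis) per library (points) in the 4 groups (horizontal axis), with mean and SD, at 15 regions that passed a test of LPS against saline and do not lie inside another gene, titled by gene and distance from its start in kb. At the Fpr2 region the MIA_LPS points lie between 46.2 and 69.9 and the CON_LPS points between 39.5 and 69.3, all above the saline points.

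Cmklr1, the chemerin receptor, changed in both directions, with 12 regions, of which 4 rose and 2 fell in rank. Its start (centred 85 bp upstream) and a region 1029 bp upstream of the start inside the gene model had a peak in all 23 libraries and did not pass. That upstream region had the highest mean rank percentile of the 46, at 81.1. The changes lay away from both.

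Inside Cmklr1, 16990 bp downstream of the start (chr5:113626363-113626863), rank percentiles were 37.3, 26.2, 38.0, 35.3 and 25.2 in MIA_LPS and 0 in all MIA_SAL libraries. CON_LPS had 0, 39.4 and 55.2 (lowest, median, highest), and CON_SAL 0 in all 5. The difference was 33.9 ± 5.51 points (limma adjusted p = 1.84e-05; exact conditional test of presence, adjusted p = 0.000537). Peaks here ranked lower by fold, at means of 11.2 ± 10.8 in MIA_LPS and 20.8 ± 13.7 in CON_LPS.

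Beyond the gene, 17762 bp from its end (chr5:113594343-113594843), another region had a peak in 11 of 12 LPS and 0 of 11 saline libraries. Its rank percentiles were 34.3, 39.8, 39.3, 17.1 and 47.5 in MIA_LPS and 0, 28.2 and 47.7 (lowest, median, highest) in CON_LPS (exact conditional test, adjusted p = 0.000537; difference 32 ± 5.59 points). It lay nearer to Wscd2, 4868 bp from an end of that gene, than to Cmklr1. A weaker gain 15307 bp inside the gene had peaks in 8 of 12 LPS and 0 of 11 saline libraries (exact conditional test, adjusted p = 0.0131) and lost its call with all deposited peaks (0.0844). At the upstream end of the gene model, 6958 bp before the start, the rank rose by 20.7 ± 6.04 points (limma adjusted p = 0.0124), with a peak in 12 of 12 LPS and 9 of 11 saline libraries.

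Losses lay among these gains at Cmklr1. At 24236 bp downstream of the start (chr5:113619117-113619617) rank percentiles were 0, 0, 43.9, 0 and 3.5 in MIA_LPS and 17, 38.9 and 52.8 (lowest, median, highest) in MIA_SAL. All 7 CON_LPS libraries had 0, and the CON_SAL libraries had 31.5, 35.7, 9.7, 10.7 and 28.7. A peak was therefore present in 2 of 12 LPS and 11 of 11 saline libraries (exact conditional test, adjusted p = 0.00156; difference −24.4 ± 5.92 points).

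With all deposited peaks this call ended (adjusted p = 0.142), and 35.7 points fewer LPS than saline libraries had a peak, in place of 80.0. At 9527 bp inside Cmklr1 the peak stayed in all 23 libraries and its rank fell by 14.8 points (SE 4.41, limma adjusted p = 0.0140).

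**Figure D4:**
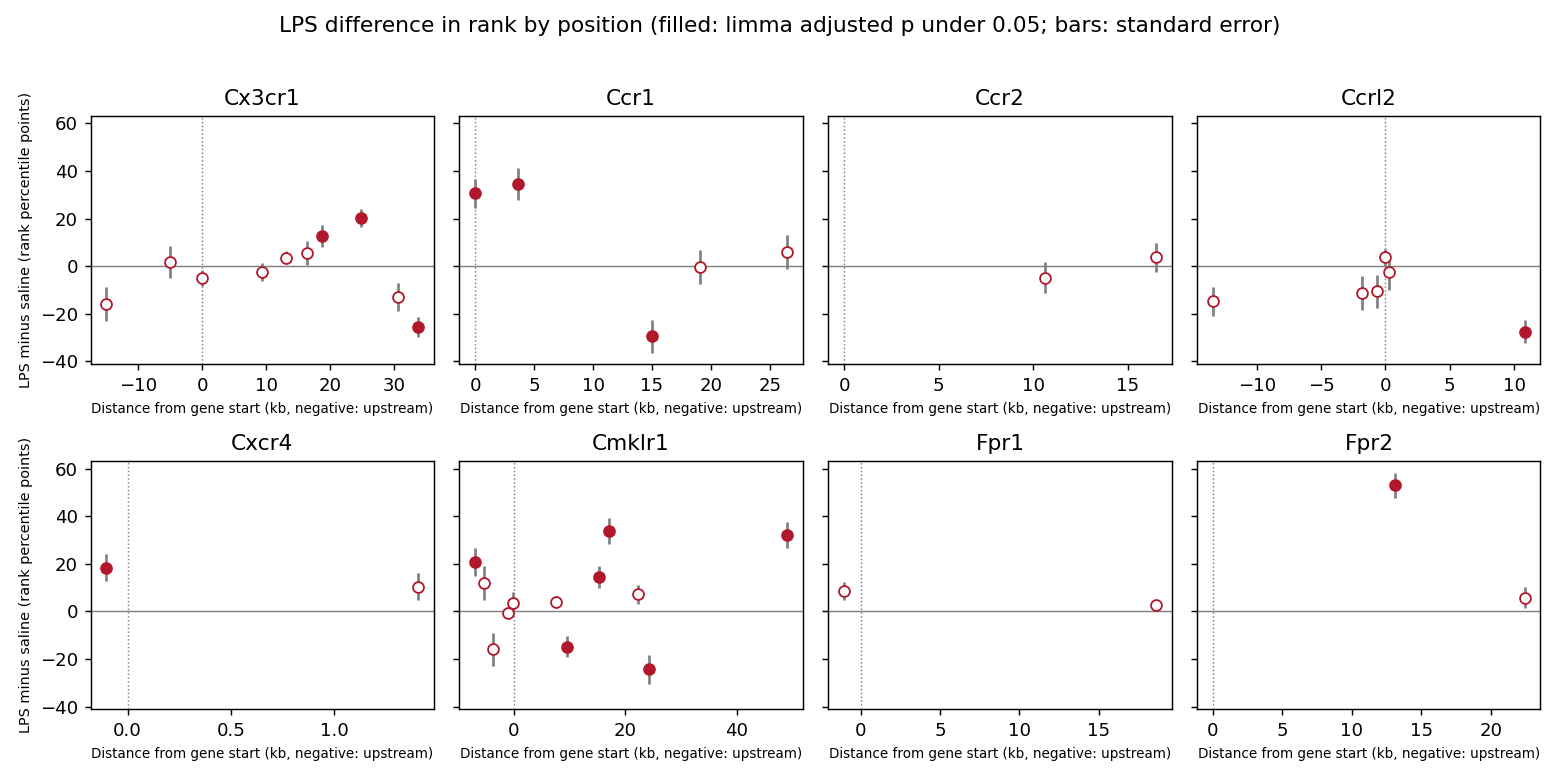
LPS minus saline difference in rank percentile (vertical axis, points, bars: standard error) against the distance of each of 41 regions, those not inside another gene, from the listed start of its gene (horizontal axis, kb, negative upstream), 1 panel a gene, filled where limma's adjusted p was under 0.05. The starts of Ccr1 and Cxcr4 stand at 30.6 and 18.4 points, those of Cx3cr1, Ccrl2 and Cmklr1 within 5 points of 0.

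Cx3cr1, the fractalkine receptor, was open over its start and inside the gene. The start region (chr9:120068046-120068546) had rank percentiles of 71.3, 74.2, 86.0, 64.8 and 69.6 in MIA_LPS and 71.1, 77.0 and 85.1 (lowest, median, highest) in MIA_SAL. CON_LPS had 48.4, 69.6 and 78.3, and CON_SAL 63.5, 89.8, 64.9, 70.7 and 78.3. The 4 groups overlapped, and the difference of −4.8 ± 3.38 points did not pass (limma adjusted p = 0.338).

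Its most accessible region, 13124 bp inside the gene, had means of 80.0 ± 4.3 in MIA_LPS, 75.2 ± 6.4 in MIA_SAL, 78.7 ± 6.6 in CON_LPS and 76.3 ± 9.8 in CON_SAL (SD), with a difference of 3.6 ± 2.68 points (limma adjusted p = 0.370). Downstream of Cx3cr1 a pair of regions that every library shared moved in opposite directions. At 5279 bp beyond the gene (chr9:120043154-120043654) the rank percentiles were 75.0, 74.4, 62.5, 60.5 and 64.9 in MIA_LPS and 36.2, 48.5 and 59.3 (lowest, median, highest) in MIA_SAL, against 65.8, 74.2 and 79.3 in CON_LPS and 47.4, 45.3, 38.2, 61.1 and 61.7 in CON_SAL. LPS and saline libraries did not overlap within either offspring group, and the rank rose by 20.4 ± 3.72 points (limma adjusted p = 9.79e-05).

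At 14143 bp beyond Cx3cr1 (chr9:120034290-120034790) the rank fell: it was 38.4, 56.5, 45.3, 27.1 and 33.9 in MIA_LPS and 55.6, 71.2 and 73.2 (lowest, median, highest) in MIA_SAL, and 28.4, 52.6 and 62.2 in CON_LPS and 71.7, 71.5, 77.8, 66.2 and 75.9 in CON_SAL. The difference was −25.5 ± 4.19 points (limma adjusted p = 2.12e-05). This region lay nearer to an end of Xirp1, 10942 bp away. A further region near the end of the gene body passed in rank at 12.8 ± 4.57 points, with a peak in 6 of 12 LPS and 0 of 11 saline libraries. Its call (limma adjusted p = 0.0433) ended without any 1 of 17 libraries, and within ID numbers 01 to 03 no library had the peak.

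Ccrl2, the chemerin-presenting receptor, was open at its start (centred 32 bp upstream) in all 23 libraries, at means of 66.1 ± 7.1 in MIA_LPS, 62.7 ± 7.4 in MIA_SAL, 67.4 ± 11.9 in CON_LPS and 63.4 ± 6.1 in CON_SAL (SD; limma adjusted p = 0.523). The region 8426 bp beyond the gene (chr9:111046158-111046658) fell in rank. It had 37.0, 41.4, 57.6, 0 and 47.3 in MIA_LPS and 58.5, 72.0 and 75.7 (lowest, median, highest) in MIA_SAL, and 35.3, 51.9 and 55.3 in CON_LPS and 73.4, 71.8, 68.7, 73.0 and 62.6 in CON_SAL. Every LPS library lay below every saline library, by 27.5 points on average (SE 4.89, limma adjusted p = 6.94e-05; exact permutation p = 2.73e-06). An end of Ltf, the lactoferrin gene and a neutrophil marker, lay closer, at 3642 bp. The ends of Ltf itself had no peak in a region that 3 or more libraries shared.

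Ccr2, the receptor of Ccl2, had no peak over its start in any of the 23 libraries, in the lists of equal length or in all deposited peaks. Of the 5 regions assigned to it, 1 was called, lower after LPS by presence and by rank. The region nearest to its start lay 3649 bp beyond the other end of the gene (chr9:124112539-124113039) and had a peak in 4 of 12 LPS and 5 of 11 saline libraries. Its rank difference after LPS was −4.8 ± 6.62 points; it is not the called one, and did not pass (limma adjusted p = 0.656). Of the 10 monocyte genes 7, Ly6c2, Plac8, Chil3 and Vcan among them, had no peak at an end in a region that 3 or more libraries shared. Per library, 2 or 3 of the 10 had such a peak in MIA_LPS, 1 to 3 in MIA_SAL, 2 or 3 in CON_LPS and 1 to 3 in CON_SAL.

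By number of sorted cells, all 16 called regions kept their sign within libraries of under 20000 and of 20000 or more cells. At the Ccr1 start the differences were 33.4 and 27.6 points in these classes, and at the Fpr2 region 54.1 and 51.1 points. Within the 6 libraries of ID numbers 01 to 03, whose meaning is not given, and within the others, 15 of 16 kept their sign. The 16 were called on these same libraries, so a kept sign was largely set in advance and is no separate test.

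Tested within each offspring group, presence passed at 5 of 11 regions in MIA offspring, all higher after LPS, and at 3 of 13 in CON offspring, 2 higher and 1 lower. Over the genome it passed at 15.4% of 5795 regions in MIA (13.0% higher, 2.48% lower) and at 12.4% of 5272 in CON offspring (9.92% higher, 2.52% lower). The 5 in MIA offspring were the start and the inner region of Ccr1, the Cxcr4 start and 2 regions of Cmklr1. The 3 in CON offspring were the Ccr1 start, the Fpr2 region and the lost region inside Cmklr1. In rank, limma called 8 of 46 in MIA offspring, 6 higher and 2 lower (10.1% of all regions, 6.27% higher and 3.84% lower). In CON offspring it called 10 of 46, 6 higher and 4 lower (10.1% of all regions, 5.61% higher and 4.51% lower).

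These separate calls do not show that the responses differed, and the difference itself passed at none of the 46 regions or of all 49124 (limma, smallest adjusted p 0.988 over the 46). At an unadjusted p under 0.05 it was 0 of 46 and 4.18% of all regions. The largest difference between responses was −27.0 ± 13.4 points, 5099 bp upstream of Cx3cr1, where MIA_LPS averaged 40 and MIA_SAL 51.9, against 39.5 in CON_LPS and 24.4 in CON_SAL.

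MIA and CON offspring were also compared over both treatments, since the title of the series speaks of a microglial reactivity blunted by prenatal immune stress. No region of the 8 genes passed: 0 of 11 tested by presence (0% of 15264 in the genome) and 0 of 46 by rank (0.00204% of all regions). At an unadjusted p under 0.05 the exact test gave 1 of 11, beside 410 of all 15264, and limma 3 of 46, beside 4.85% of all regions. The largest rank difference was −16.0 ± 6.08 points, 13393 bp upstream of Ccrl2 (limma adjusted p = 0.961), with means of 9.3 in MIA_LPS and 19.8 in MIA_SAL against 21.0 in CON_LPS and 40.1 in CON_SAL. Within each treatment the exact test also called 0 of 4 after LPS (0% of 4224, of which 130 had an unadjusted p under 0.05) and 0 of 4 after saline (0% of 4574, of which 41 had).

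Ligand genes of these receptors had called regions in both directions, as had tested regions at large. Of 49 regions at 13 of 15 ligand genes, 23 were testable, with 4 higher after LPS and 2 lower, where 15.3% of all tested regions were higher and 8.39% lower. Ccl2, the Ccr2 ligand, had a peak 19020 bp away in 12 of 12 LPS and 2 of 11 saline libraries, and Ccl3, a Ccr1 ligand, 6535 bp away in 5 of 12 and 0 of 11. Ccl6 and Saa3, a serum amyloid gene whose products act on Fpr2, had a region higher after LPS as well. Cxcl12, the ligand of Cxcr4, lost a region 9296 bp away, with a peak in 0 of 12 LPS and 9 of 11 saline libraries, as did Ccl9.

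Among 30 other chemotactic receptors, 128 regions lay at 25 genes, and of 58 testable 12 were higher and 5 lower, beside the same 15.3% and 8.39% of all tested regions. Ptafr, the receptor of platelet-activating factor, had 4 gained regions, and Xcr1, also on chromosome 9, had 3, of which 2 lay inside Fyco1, with a peak in 12 of 12 LPS and in 2, 1 and 3 of 11 saline libraries. For signal transduction and desensitisation, 23 symbols stood for 21 genes, all with a region. Of 88 testable regions 17 were higher and 4 lower, beside those same shares. These included gains at Prex1, Pik3r5, Pik3cg, Rac2 and Grk6 and losses at Grk3 and Rgs1, and Elmo1 among both. Median rank differences were −0.62 points for ligands, 0.84 for other receptors and 0.48 for signalling genes, beside 3.59 for the 8 receptors.

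The regions with the pattern most like the start of Ccr1, by the smallest mean absolute difference of rank percentile over the 23 libraries, lay nearest to Dync1i2 (4.68 points), Mmp19 (4.77), Tigd2 (5.01), Arid5a (5.12) and Mreg (5.18). Those most like the lost region inside Cmklr1 lay nearest to Trh (4.66 points), Elovl5 (6.31), Pttg1 (6.58) and Wdfy3 (6.67). Mmp19, a matrix metalloproteinase, had its region 21 bp from an end of the gene, with a peak in 12 of 12 LPS and 0 of 11 saline libraries like Ccr1.

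The limit of 20 kb set which regions were counted. The farthest counted region lay 19885 bp from Ccr1 and had a peak in 15 libraries. Just beyond the limit, regions 20286 bp from Cmklr1 and 20563 bp from Ccr1 had a peak in all 12 LPS and all 11 saline libraries. The nearest region beyond it at Cxcr4, at 22697 bp, had a peak in 9 of 12 LPS and 0 of 11 saline libraries, and was not counted.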

How the data were processed

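ATAC-seq peaks were analysed in 23 libraries of sorted striatal microglia. Reads were trimmed, aligned to mm10 (GRCm38) and peaks called with cutadapt, Bowtie2, Picard, SAMtools and MACS2, tools named with no role, per the submitters' processing notes, which also name DiffBind; no version or setting is given there. Peaks are listed per library. The deposited columns hold each peak's fold enrichment (a ratio), −log10 p and −log10 q, whose lowest value was 1.301, and an integer score made by the authors that was not used. Read depth is unknown, so no counting interval is given.

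Lists were shortened to the length of the shortest, 33949 peaks, by −log10 p, and 501 bp windows were placed on summits, best rank first and without overlap. This gave 74287 windows, of which 49124 with a peak in at least 3 libraries were kept. A peak counted when it covered 50% of a region or lay 50% inside it. Equal length removes differences in list length, and a rank shows no absolute change. Presence was tested two-sided by Fisher's exact test within an offspring group, and by an exact conditional test (common odds ratio) over both, in regions whose attainable p was 0.01 or less. Rank percentiles were fitted in limma 3.58.1 (R 4.3.3) on all 4 groups, with trend and robust moderation. Both used Benjamini-Hochberg adjustment over all regions tested, at 0.05. Exact permutation tests of the rank difference were two-sided and kept the offspring groups. The code was tested on simulated data, and Python 3.11.15 with numpy 2.4.6 and pandas 2.3.3 was used.

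The rule for naming took all 8 genes, the regions called in any comparison, each gene's region of highest mean rank and the region nearest its start, apart from items left out as stated at the end. Genes, lists and tests were chosen with earlier results of these data known. Alternatives were all deposited peaks, lists of 16974 peaks, a −log10 q of at least 5, ranking by fold, the summit inside the region, no filter on the attainable p, each library left out, the libraries of ID numbers 01 to 03 left out, blocks for replicate and ID number, and 10 kb in place of 20 kb. Exon and intron positions were not used here. Some items, single regions assigned to Ccr2 among them, enter the counts but are not reported here.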

Additional observations from a re-analysis of the deposited data

Results flagged for a closer look

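Of 92 groups of values at the 8 genes, 9 had a library far from the others of its group, where chance gives about 1 in 20; 8 of them are described. At Fpr2, MIA_LPS replicate 1 had 3 peaks among all deposited peaks, beside a median of 2 in the other libraries of its group, and MIA_SAL replicate 1 had a rank percentile of 16.3 at the region gained after LPS, where the other 5 libraries had 0. At Cx3cr1, MIA_LPS replicate 3 had a rank percentile of 87.6 at the region 13124 bp inside the gene, above a median of 78.1. At Cxcr4, CON_LPS replicate 6 had 1 peak beside a median of 2, and CON_SAL replicate 5 had 20.6 at the start, where the other 4 had 0. At Ccrl2, CON_LPS replicate 1 had 43.2 at the start, below a median of 70.3, and CON_SAL replicate 3 had 8 peaks beside a median of 6. At Fpr1, CON_LPS replicate 6 had 10.2 at the upstream region, where the other 6 had 0.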

How the results depend on the processing

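Counts are of regions of the 8 genes called after LPS. Presence over both offspring groups gave 10 calls, and 4 with lists of 16974 peaks (the short lists below). In CON offspring it gave 3 calls, 1 with all deposited peaks, with peaks of −log10 q 5 or more and with ranking by fold, 0 with the short lists or no filter on the attainable p, and 5 without ID numbers 01 to 03. In MIA offspring it gave 5 calls, 2 with all deposited peaks, 3 with the −log10 q of 5, 1 with ranking by fold, and 0 with the short lists or no filter; without those ID numbers no region could be tested. Rank over both gave 16 calls, 4 with the short lists and 10 with the −log10 q of 5. In CON offspring it gave 10 calls, and 3, 1 and 6 with the short lists, the −log10 q of 5 and ranking by fold; in MIA offspring it gave 8, and 3 with the short lists. Leaving out 1 library gave 9 to 11, 3 to 4 and 5 to 6 calls by presence over both, in CON and in MIA offspring, and 15 to 17, 9 to 12 and 6 to 10 by rank. Comparisons of MIA with CON offspring and of their responses gave 0 calls under each alternative run; after saline, no region of these genes could be tested by presence without those ID numbers or without MIA_SAL replicate 6. Over single regions, 1428 of 1548 repeats kept direction and side of the threshold, 120 lost the call and 0 reversed. Of the 1196 repeats that left out 1 library, 36 lost the call, and of the 352 under other settings 84 did. Repeats that gave no test value for a region, with the short lists among them, are outside these counts. With a distance of 10 kb, 32 of the 46 regions remained. The cause of these changes was not tested.

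Over 31 pairs of libraries from different groups with the same replicate number, the correlation of deviations ran from −0.180 to 0.185 (median 0.021), with 8 over 0.1. Over 166 pairs with other numbers it ran from −0.229 to 0.234 (median −0.005), with 14 over 0.1. Of 23 libraries, 7 correlated best with their own number. These values do not settle whether replicate numbers pair libraries. With the replicate number as a block, rank calls were 16 over both, 10 in CON and 8 in MIA offspring, and 0 for the other comparisons. The meaning of the second number of the ID is not given. The 6 pairs from different groups that shared it had correlations of 0.029 to 0.156, with 4 over 0.1. Of 191 pairs with other second numbers, 18 were over 0.1. Within groups, CON_SAL replicates 4 and 5, CON_LPS 1 and 6, MIA_SAL 1 and 5, and MIA_SAL 3 and 4 also shared this number. The exact tests of presence counted these libraries as separate and were not blocked for this number. With that number as a random block (consensus correlation 0.132), rank calls were 16, 11 and 9, and 0 for the others. Read depth is unknown, so a missing peak may be a peak below the authors' threshold.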
